A study of Mus musculus with 6 samples.

Results

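Macrophages that have met bacterial lipopolysaccharide (LPS) answer a second dose with a weaker set of transcripts, a state called tolerance. Tolerized peritoneal macrophages of mice without the genes of the microRNAs miR-221 and miR-222 (KO) were compared here with tolerized macrophages of wild-type mice (WT), 1 library each. All 9757 genes that met 3 conditions entered the comparison, out of 23699 rows per library. The conditions were an OK status in both libraries, a symbol listed once, and at least 2 FPKM (sequenced fragments, scaled to transcript length and library size) in either library. The choice of genes used no difference between the genotypes.

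Both tolerized groups received 10 ng/ml LPS for 15 h, a wash and a rest of 2 h, and then 1000 ng/ml LPS for 4 h. The mice were C57Bl/6, with the genotype miR-221/222 -/Y for KO and wildtype for WT, and the macrophages were from the peritoneal cavity, kept in DMEM with serum. Age was not stated. The series holds the same pair of genotypes without LPS (naive) and after 4 h of 1000 ng/ml LPS alone, again 1 library each, so 6 libraries in all. The design text speaks of triplicates, and whether the deposited libraries pool them was not stated. With 1 library per group no difference within the tolerized pair has a replicate check, and no p-value is given for it.

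MicroRNAs are short RNAs that guide Argonaute proteins to messenger RNAs carrying a match to their seed, bases 2 to 8, and lower the level or the translation of those messages. LPS signals through Toll-like receptor 4 along 2 arms: the MyD88 arm leads to NF-kappaB and cytokine genes, and the TRIF arm leads to interferon beta and, through it, to interferon-stimulated genes. In tolerance many of these genes answer less on the second exposure. The SWI/SNF complex, whose ATPase Brg1 is encoded by Smarca4, opens chromatin at late LPS genes, and the title of the series names miR-222 as a regulator of the tolerized response.

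The mature sequences of both deleted microRNAs are shown because they share the seed that defines their targets. They lie on chromosome X, minus strand (chrX:19146307-19146329 and chrX:19146901-19146923, GRCm38.p6, from RefSeq), and capitals mark the seed.
mmu-miR-221-3p: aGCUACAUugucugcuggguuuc
mmu-miR-222-3p: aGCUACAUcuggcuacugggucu
The short precursor genes Mir221 (chromosome X, 18723420 to 18723514, mm9) and Mir222 (18724019 to 18724097) were listed at 0 FPKM in the KO and the WT tolerized library. Poly-A selection captures genes this short poorly, and a value of 0 in both libraries does not check the genotype labels.

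The cells carried macrophage markers in both libraries. All 8 markers checked, among them Emr1 (F4/80), Csf1r and Cd68, had at least 2 FPKM in each, and Emr1 stood at 841.7 FPKM in KO against 921.9 FPKM in WT. They summed to 11638.5 FPKM in KO against 17589.5 FPKM in WT, most of it Lyz2 (-0.70), and of 13 measured genes of the longer macrophage list 9 lay below 0. B cell markers were present too, with all 6 above 2 FPKM and a summed level of 547.7 FPKM in KO against 437.1 FPKM in WT. Markers of T and NK cells summed to 22.2 FPKM in KO against 19.9 FPKM in WT. Neutrophil markers summed to 348.5 FPKM in KO against 200.7 FPKM in WT, nearly all from S100a8. Camp had 6.95 FPKM in KO against 8.85 FPKM in WT, S100a9 and Ngp were listed at 0 in both, and Ltf stayed below 0.1 FPKM. S100a9 was listed at 0 in all 6 libraries, where S100a8 ran from 65.2 to 341.4 FPKM, so that 0 may not show absence. The other 5 of 6 measured genes of the longer neutrophil list, Mmp8 (-1.18) and Mmp9 (-0.98) among them, lay below 0, and the median of the 6 was -0.30. The intervals deposited with the values implied about 25.2 M fragments in KO and 24.9 M in WT. At 10 FPKM or more these intervals reached a median of 5.03% of the value to either side in KO and 5.05% in WT, and at 2 to 5 FPKM 13.7% in both. They cover counting error only and not the spread between mice or cultures.

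Most genes stood at like levels in the KO and the WT tolerized library. On the log2(FPKM + 1) scale, on which every ratio below is given, the median difference of KO over WT was -0.02 with quartiles at -0.18 and 0.16, and 91.6% of genes lay within 1.5-fold. At least 2-fold higher in KO were 181 genes, 1.86% of those measured, and at least 2-fold lower were 87, or 0.892%. Of these, 176 higher and 74 lower genes also had deposited intervals that did not overlap. Of all genes, whatever the size of the difference, 44.9% had intervals that did not overlap, the share against which such counts below are to be read. Counts of 2-fold genes in the lists below are to be read against the 1.86% and 0.892%. Rows of small RNA genes made up 5 of the higher and 13 of the lower genes. The members nearest the limit were Olfr56 at 1.0002 and Gtsf1 at 0.9998, and Cald1 at -1.01 and Col18a1 at -0.998. Past 4-fold, and without small RNA rows, 30 genes were higher and 6 lower in KO.

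**Figure D1:**
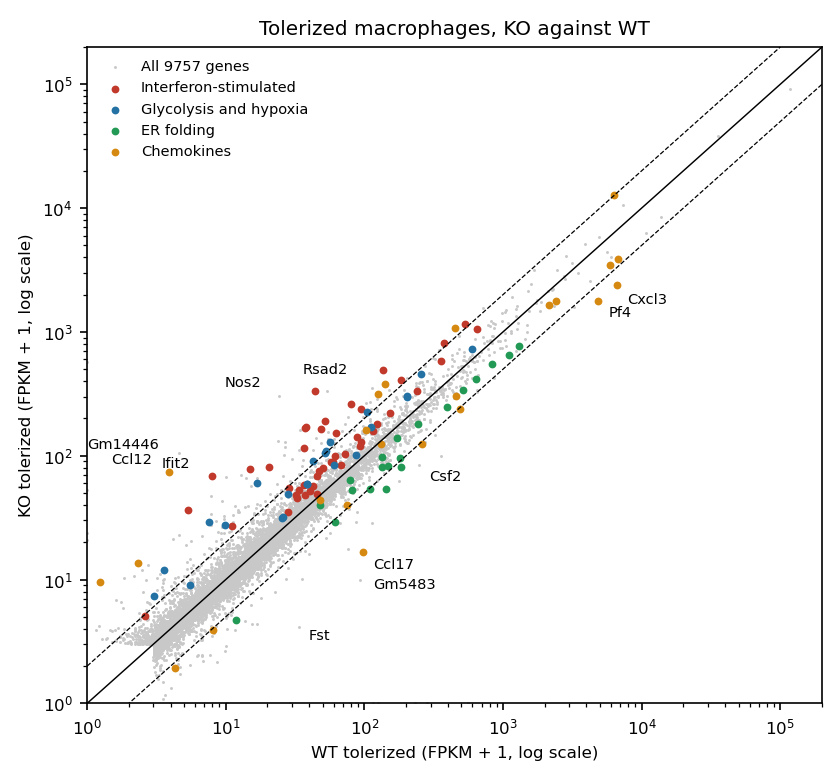
Level of each of the 9757 genes in the KO tolerized library (vertical axis) against the WT tolerized library (horizontal axis), both as FPKM + 1 on log scales, 1 point per gene. The solid line marks equal levels and the dashed lines a 2-fold difference, beyond which lie 181 genes above and 87 below. Interferon-stimulated genes (red) and glycolysis and hypoxia genes (blue) sit above the solid line, endoplasmic reticulum folding genes (green) below it, and chemokines (orange) on both sides.

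Among genes with at least 10 FPKM in either library, small RNA rows left out, the largest differences on the high side belonged to antiviral genes, a chemokine and nitric oxide synthase. Gm14446 (chromosome 19, 34667378 to 34676458, mm9), a member of the Ifit family that RefSeq calls Ifit1bl1, stood at 103.3 FPKM in KO (deposited interval 100.4 to 106.2) and 3.59 FPKM in WT (3.05 to 4.13), a ratio of 4.51. Ccl12 (chromosome 11, 81915347 to 81916901), a monocyte-attracting chemokine, had 72.6 FPKM in KO against 2.90 FPKM in WT, a ratio of 4.24. Neither gene's intervals came near each other.

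Nos2 (chromosome 11, 78734361 to 78773626), the inducible nitric oxide synthase, had 304.4 FPKM in KO against 23.3 FPKM in WT, a ratio of 3.65 with bounds of 3.58 and 3.73 from the deposited intervals. After LPS alone Nos2 stood at 224.5 FPKM in KO against 23.5 FPKM in WT, and in naive cells at 0.453 FPKM in KO against 0.0752 FPKM in WT. The Nos2 level of the WT library was thus about the same after both LPS treatments, and that of the KO library was above it in both. Arg1, which competes with Nos2 for arginine, stood at 173.7 FPKM in KO against 96.0 FPKM in WT, a ratio of 0.85.

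Among the other genes at the top, Ms4a4c, a membrane protein gene of the Ms4a family, had 333.5 FPKM in KO against 52.5 FPKM in WT. Aif1, which encodes the calcium-binding macrophage protein Iba1, had 46.7 FPKM in KO against 6.81 FPKM in WT. The nucleoside transporter gene Slc28a2 had 80.2 FPKM in KO against 14.3 FPKM in WT, and the apolipoprotein L gene Apol9b had 20.1 FPKM in KO against 3.16 FPKM in WT. In naive cells Slc28a2 was not higher in KO, with a ratio of -0.35.

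**Figure D2:**
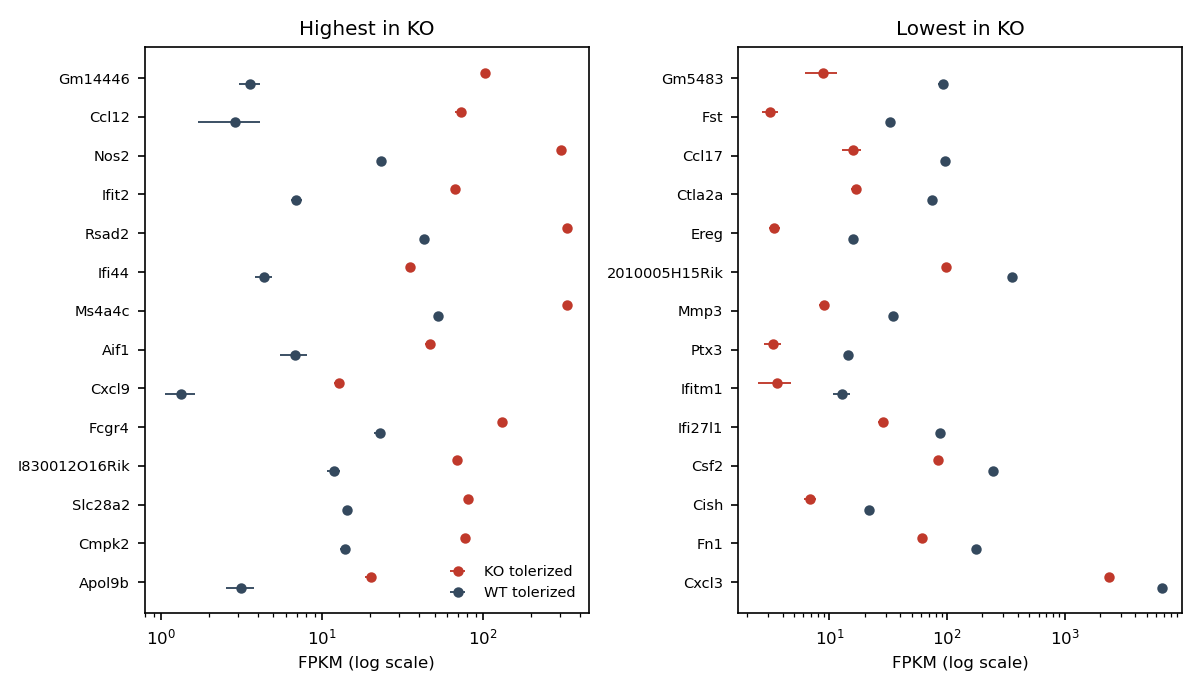
FPKM on log scales of 14 of the 15 genes with the largest positive and 14 of the 15 with the largest negative log2 ratio of KO over WT tolerized cells, among genes with at least 10 FPKM in either library. Points are single libraries, KO in red above WT in dark blue, and bars are the deposited intervals, which cover counting error only. The gap between the libraries exceeds the bars for every gene shown, from Gm14446 (4.51) to Apol9b (2.35) and from Gm5483 (-3.25) to Cxcl3 (-1.47).

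Interferon-stimulated genes were higher in KO throughout the list. All 46 measured members lay above 0, where 47.3% of all genes did, 18 were at least 2-fold higher, none was at least 2-fold lower, and in 45 the intervals of the libraries did not overlap, beside 44.9% of all genes. The median ratio was 0.68, beside -0.02 for all genes. Ifit2, which encodes a protein that binds viral RNA, had 67.2 FPKM in KO against 6.94 FPKM in WT (ratio 3.10). Rsad2 (viperin, chromosome 12, 27127608 to 27141317), which makes an antiviral nucleotide, had 331.5 FPKM in KO against 43.1 FPKM in WT (2.91). Its neighbour Cmpk2, a nucleotide kinase, had 77.2 FPKM in KO against 13.9 FPKM in WT (2.40), and Ifi44 had 35.3 FPKM in KO against 4.38 FPKM in WT (2.76).

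Other members of the list spread down to the smallest difference. Mx1, the influenza resistance GTPase, had 80.8 FPKM in KO against 19.7 FPKM in WT, and Ifit3 had 165.4 FPKM in KO against 36.5 FPKM in WT. Ifit1 had 235.7 FPKM in KO against 93.8 FPKM in WT. I830012O16Rik, which RefSeq calls Ifit3b, had 68.6 FPKM in KO against 11.8 FPKM in WT, and reads of the Ifit family can be shared among its similar members, so each value is uncertain. The factors that carry the interferon signal lay below the median of the list: Stat2 had 44.7 FPKM in KO against 31.4 FPKM in WT (0.49), and Irf9, its partner, had 47.8 FPKM in KO against 44.5 FPKM in WT with overlapping intervals (0.10).

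Interferon-inducible GTPases, which coat and break the vacuoles of intracellular microbes, lay above 0 in 15 of 15 measured, with 4 at least 2-fold higher and a median of 0.73. Iigp1 had 28.8 FPKM in KO against 7.52 FPKM in WT (1.8), and Gbp4 had 32.2 FPKM in KO against 10.3 FPKM in WT (1.55). Gbp11 (2.37 FPKM in KO against 0.395 in WT) and Gbp9 (38.7 FPKM in KO against 16.5 in WT) followed. Gbp11 was below 2 FPKM in WT, so it entered through the KO library alone, where it was higher. These genes also belong to a family of similar sequences.

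MHC class I presentation genes, which interferons raise as well, lay above 0 in 17 of 18, with a median of 0.53. The nonclassical class I genes H2-Q7 (265.9 FPKM in KO against 101.6 in WT) and H2-Q4 (338.9 FPKM in KO against 149.0 in WT) were the 2 past 2-fold. The classical gene H2-K1 had 2429 FPKM in KO against 1591 FPKM in WT, a ratio of 0.61. MHC class II genes were above 0 in 9 of 11 with none past 2-fold, from H2-Oa at 0.67 to H2-Ab1 at -0.41, and a median of 0.36. B cells also carry class II molecules, and their marker genes were above 0 in 14 of 14, led by Faim3 at 59.7 FPKM in KO against 30.5 FPKM in WT, with a median of 0.30. The part of B cells in the class II values was not tested, and in bulk RNA more cells of a type and more RNA per cell cannot be told apart.

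The interferon-stimulated response element is the promoter sequence to which Stat2 and Irf factors bind. A sequence like it, GAAA followed by any 2 bases and GAAA again, on either strand, was searched in RefSeq promoters, 250 bases before to 50 after each start (GRCm38.p6). It was found in 20 of 42 promoters of the interferon-stimulated list (47.6%; 35 of 46 genes matched), 7 of 9 of the GTPases (77.8%), 33 of 162 promoters of genes at least 2-fold higher in KO (20.4%) and 2 of 66 of those lower (3.03%). Of all 9995 promoters of measured genes 3.39% held it, and of the 32851 in that collection 3.44%. The promoters of Rsad2 (chr12:26456403-26456702, minus strand), Ifit3 (chr19:34583279-34583578, plus) and Ifit1 (chr19:34640639-34640938, plus) are shown as strongly differing genes with a match, in capitals. Ifit3 and Ifit1 have 2 matches each, none overlapping, and the promoters of Ifit2 and Cmpk2 have none in this window.
Rsad2: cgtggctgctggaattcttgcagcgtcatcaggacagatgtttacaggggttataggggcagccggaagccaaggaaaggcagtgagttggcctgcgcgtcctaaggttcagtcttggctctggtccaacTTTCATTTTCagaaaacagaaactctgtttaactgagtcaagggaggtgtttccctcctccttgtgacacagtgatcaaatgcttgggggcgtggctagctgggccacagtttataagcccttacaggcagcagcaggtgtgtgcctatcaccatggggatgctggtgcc
Ifit3: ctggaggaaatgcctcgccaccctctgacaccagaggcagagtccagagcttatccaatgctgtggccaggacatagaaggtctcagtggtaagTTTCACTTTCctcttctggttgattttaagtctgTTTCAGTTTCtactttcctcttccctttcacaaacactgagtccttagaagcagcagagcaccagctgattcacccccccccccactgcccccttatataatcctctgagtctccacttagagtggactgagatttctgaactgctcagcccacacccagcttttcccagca
Ifit1: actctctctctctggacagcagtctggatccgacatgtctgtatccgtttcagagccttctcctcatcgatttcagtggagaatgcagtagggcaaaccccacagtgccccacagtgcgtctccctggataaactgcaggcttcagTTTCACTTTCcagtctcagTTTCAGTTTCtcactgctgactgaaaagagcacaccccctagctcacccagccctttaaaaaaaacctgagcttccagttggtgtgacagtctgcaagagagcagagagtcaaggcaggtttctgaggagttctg
A kappaB-like sequence, GGGA followed by any base and TTTCC, on either strand, was in none of the 162 promoters of higher genes, 1.52% of those of lower genes and 0.49% of those of all measured genes. The AP-1 sequence TGACTCA was in 12.3% of promoters of higher genes, 13.6% of lower and 3.89% of all measured genes. A match is a stretch of letters and not a site shown to be bound.

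Chemokine ligands, which draw leukocytes to a site, divided. Of 23 measured, 7 were at least 2-fold higher and 7 at least 2-fold lower in KO, beside 1.86% and 0.892% of all genes. The median was -0.43. Cxcl11 and Cxcl9 were below 2 FPKM in WT, and Cxcl14 in KO, so each entered through the library where it was higher. On the high side, beside Ccl12, were the 3 interferon-induced ligands of Cxcr3, a chemokine receptor of T cells. Cxcl11 had 8.49 FPKM in KO against 0.238 FPKM in WT, Cxcl9 had 12.7 FPKM in KO against 1.34 FPKM in WT, and Cxcl10 had 312.0 FPKM in KO against 125.4 FPKM in WT. The others were the monocyte attractants Ccl2 (1069 FPKM in KO against 452.0 in WT) and Ccl7 (376.8 FPKM in KO against 140.2 in WT) and the T cell attractant Ccl5 (12784 FPKM in KO against 6346 in WT).

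On the low side was Ccl17, a ligand of Ccr4, with 15.7 FPKM in KO against 96.3 FPKM in WT (-2.54), joined by the other Ccr4 ligand Ccl22 with 236.9 FPKM in KO against 486.3 FPKM in WT. The neutrophil attractants Cxcl3 (2403 FPKM in KO against 6664 in WT) and Cxcl5 (123.3 FPKM in KO against 260.9 in WT) and the platelet factor genes Pf4 (1787 FPKM in KO against 4869 in WT) and Ppbp were lower by at least 2-fold as well. Cxcl2 at -0.80 and Cxcl1 at -0.43 lay on the same side without passing it, as did Ccl3 at -0.76 and Ccl4 at -0.40. Cxcl14, at 0.941 FPKM in KO against 3.32 FPKM in WT, was the seventh.

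Secreted cytokines divided too, around a median of -0.06, with 5 of 25 at least 2-fold higher and 2 lower. The tolerance hallmark Tnf stood at 1352 FPKM in KO against 1235 FPKM in WT (0.13), Il6 at 1624 FPKM in KO against 2317 FPKM in WT (-0.51), and Il12b at 14.8 FPKM in KO against 22.8 FPKM in WT (-0.59). Il15, a growth factor of NK and memory T cells, had 19.4 FPKM in KO against 4.64 FPKM in WT (1.86). Il19 of the interleukin-10 family had 35.7 FPKM in KO against 11.3 FPKM in WT (1.58), and Il10 itself, which restrains macrophages, had 54.7 FPKM in KO against 27.1 FPKM in WT (0.99). The interleukin-1 genes were lower and their antagonist higher: Il1b had 6326 FPKM in KO against 10682 FPKM in WT, Il1a had 4021 FPKM in KO against 5965 FPKM in WT, and Il1rn had 1554 FPKM in KO against 718.8 FPKM in WT.

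Csf2, the granulocyte and macrophage growth factor GM-CSF, was the cytokine with the largest negative ratio, with 83.6 FPKM in KO against 247.1 FPKM in WT (-1.55). Cish, which is raised by cytokines that signal through Stat5, GM-CSF among them, and dampens that signal, had 6.88 FPKM in KO against 21.9 FPKM in WT (-1.54). Il23a had 3.0 FPKM in KO against 9.20 FPKM in WT (-1.35). After LPS alone Csf2 and Cish were lower in KO as well, at -2.97 and -1.94, and in naive cells they were higher, at 1.66 and 0.97. The naive levels were low, with Csf2 at 2.72 FPKM in KO against 0.173 FPKM in WT.

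Glycolysis and hypoxia genes were above 0 in 23 of 23 measured, with no overlap of intervals in any (44.9% of all genes had none), 10 at least 2-fold higher and a median of 0.80. The largest ratios were those of genes raised by low oxygen through the factor Hif1. Ankrd37 had 28.1 FPKM in KO against 6.58 FPKM in WT (1.94), and Bnip3, a mitochondrial autophagy receptor, had 59.5 FPKM in KO against 15.7 FPKM in WT (1.85). Vegfa, the vascular growth factor, had 11.0 FPKM in KO against 2.61 FPKM in WT (1.74), and Egln3, a prolyl hydroxylase that marks Hif1a for decay, had 26.7 FPKM in KO against 8.84 FPKM in WT (1.49). Enzymes and carriers of glycolysis followed, chosen as examples after their values were seen: Pfkfb3 at 1.19, Tpi1 at 1.12, the lactate exporter Slc16a3 at 1.09 and Ldha at 0.84. Hif1a itself stood at 101.0 FPKM in KO against 85.5 FPKM in WT (0.24), the smallest ratio of the list.

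The core of the hypoxia response element, ACGTG on either strand, was added to the search after these values were seen. It was in 19 of 29 promoters of the list (65.5%; 22 of 23 genes matched), in 26.6% of those of all measured genes, in 18.5% of those of genes at least 2-fold higher and in 19.6% of all promoters in the table. The promoters of Bnip3 (chr7:138909457-138909756, minus strand) and Ankrd37 (chr8:45999801-46000100, minus), the genes with the largest ratios, each hold 2 matches, in capitals. In Bnip3 the 2 overlap as a palindrome.
Bnip3: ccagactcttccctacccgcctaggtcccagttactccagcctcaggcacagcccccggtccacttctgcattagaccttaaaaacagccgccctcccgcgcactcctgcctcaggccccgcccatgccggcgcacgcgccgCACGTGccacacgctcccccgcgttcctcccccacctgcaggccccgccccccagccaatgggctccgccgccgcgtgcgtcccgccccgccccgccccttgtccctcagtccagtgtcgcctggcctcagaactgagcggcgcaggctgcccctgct
Ankrd37: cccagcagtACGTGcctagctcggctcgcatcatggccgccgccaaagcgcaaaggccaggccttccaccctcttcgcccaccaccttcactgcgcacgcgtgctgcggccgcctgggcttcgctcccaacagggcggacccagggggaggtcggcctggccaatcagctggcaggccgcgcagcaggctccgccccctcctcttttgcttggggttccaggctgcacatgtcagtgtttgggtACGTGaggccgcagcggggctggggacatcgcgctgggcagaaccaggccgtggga

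Genes of the respiratory chain and ATP synthase lay on the other side of 0, all 26 of them, by small amounts. Their median was -0.21, none passed 2-fold, and in 17 the intervals did not overlap (44.9% of all genes). Ndufa4 had 159.7 FPKM in KO against 253.5 FPKM in WT (-0.66), followed by Ndufa2 at -0.42 and Cox7b at -0.40. At the other end were Atp5c1 at -0.02 and Uqcrc2 and Ndufb5 at -0.03.

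Folding genes of the endoplasmic reticulum, a list drawn up after the values were seen and given as a description, were below 0 in 20 of 20 with no overlap of intervals (as in 44.9% of all genes), 5 at least 2-fold lower and a median of -0.69. The chaperone BiP, encoded by Hspa5, had 646.2 FPKM in KO against 1099 FPKM in WT (-0.77). Sdf2l1, whose product works with BiP, had 52.9 FPKM in KO against 141.3 FPKM in WT (-1.40), and the disulfide isomerase genes Pdia5 and Pdia4 were at -1.33 and -1.17. The calcium-binding chaperone Calr had 766.5 FPKM in KO against 1299 FPKM in WT (-0.76). Xbp1, a transcription factor of the unfolded protein response, stood at -0.30.

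The stefins, small inhibitors of cathepsins encoded by a cluster on chromosome 16, were lower in KO in the 3 measured members. Gm5483 (36184298 to 36188196, mm9; Cstdc4 in RefSeq) had 8.84 FPKM in KO against 92.4 FPKM in WT, a ratio of -3.25 with bounds of -3.84 and -2.76. 2010005H15Rik (36221648 to 36257513; Csta2 in RefSeq) had 98.6 FPKM in KO against 354.0 FPKM in WT (-1.83), and Stfa3 had 21.6 FPKM in KO against 37.9 FPKM in WT (-0.78). In naive cells 2010005H15Rik was the higher in KO, with 9.46 FPKM in KO against 0.151 FPKM in WT. The cluster's members are alike in sequence, so reads may be shared among them.

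Acute phase genes differed in both directions. Saa1 had 42.4 FPKM in KO against 8.36 FPKM in WT (2.21), and Orm2 (1.35) and Orm1 (1.25) were higher as well. Saa2, at 4.94 FPKM in KO against 0.819 FPKM in WT, was also higher but entered through the KO library alone. Saa3, the macrophage serum amyloid gene, was the most abundant transcript, with 92289 FPKM in KO against 117289 FPKM in WT, which was 14.4% of all FPKM in KO and 17.5% in WT.

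Fst, which encodes follistatin, a secreted inhibitor of activins, had 3.14 FPKM in KO against 32.5 FPKM in WT (-3.02). The gene of its ligand, Inhba, had 129.9 FPKM in KO against 194.4 FPKM in WT (-0.58). Ereg, an epidermal growth factor receptor ligand, had 3.41 FPKM in KO against 15.8 FPKM in WT (-1.93). Ctla2a, a cathepsin inhibitor, had 16.7 FPKM in KO against 75.1 FPKM in WT (-2.10), and Ptx3, a soluble pattern receptor, had 3.34 FPKM in KO against 14.4 FPKM in WT (-1.82). The small interferon-induced genes Ifitm1 (3.61 FPKM in KO against 12.7 in WT) and Ifi27l1 (28.4 FPKM in KO against 86.3 in WT) stood on the low side, away from the interferon-stimulated list, of which neither is a member.

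Matrix, protease and coagulation genes had 3 of 18 members at least 2-fold higher and 3 lower. Of the genes higher in KO, Spp1 (osteopontin) had 29.6 FPKM in KO against 8.64 FPKM in WT (1.67). Mmp3 (stromelysin) had 9.03 FPKM in KO against 34.6 FPKM in WT (-1.83), and Fn1 (fibronectin) had 61.7 FPKM in KO against 175.4 FPKM in WT (-1.49). Markers of mesothelium and fibroblasts were mixed beside them, with Dcn at 28.1 FPKM in KO against 10.3 FPKM in WT. Col1a1, at 0.480 FPKM in KO against 2.51 FPKM in WT, entered through the WT library alone, where it was higher. Msln and Wt1 were near 0 in both. The part of mesothelium and fibroblasts in the matrix values was not tested.

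Surface receptors of the macrophages differed gene by gene. The activating IgG receptor genes Fcgr4 and Fcgr1 were at least 2-fold higher in KO: Fcgr4 had 130.9 FPKM in KO against 22.8 FPKM in WT (2.47), and Fcgr1 had 127.0 FPKM in KO against 25.8 FPKM in WT (2.25). The other 12 lectin and Fc receptor genes lay between -0.85 (Clec5a) and 0.53 (Clec4a3). All 7 Ly6 antigen genes were above 0, led by Ly6c2, which marks inflammatory monocytes, at 110.9 FPKM in KO against 41.7 FPKM in WT (1.39). The small peritoneal macrophage, monocyte and dendritic cell list, which holds Ly6c2, was mixed. Of its 11 measured genes 7 were above 0 and 4 below, with a median of 0.07. By at least 2-fold 3 were higher and 2 lower, the latter Fn1 (-1.49) and Itgax. Slamf7 had 205.3 FPKM in KO against 74.8 FPKM in WT (1.45) and Axl, a receptor for dying cells, had 61.9 FPKM in KO against 27.8 FPKM in WT (1.12). The integrin gene Itgax was lower, at 20.5 FPKM in KO against 51.8 FPKM in WT (-1.29).

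The LPS sensing path itself differed less. Of 20 Toll-like receptor, co-receptor and adaptor genes 1 was at least 2-fold higher and none lower. That gene was Ticam2 (TRAM), the adaptor that links Toll-like receptor 4 to TRIF, at 20.2 FPKM in KO against 8.17 FPKM in WT (1.21). Tlr4 had 16 FPKM in KO against 27.9 FPKM in WT (-0.77), Cd14 had 878.2 FPKM in KO against 1430 FPKM in WT (-0.70), and Tlr2 was also at -0.70. Among 23 negative regulators Dusp1, a phosphatase of MAP kinases, had 91.7 FPKM in KO against 35.2 FPKM in WT (1.36), and none of 26 NF-kappaB, AP-1 and EGR factor genes passed 2-fold.

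Lipid genes leaned low, with 15 of 19 liver X receptor targets and sterol synthesis genes below 0 and a median of -0.29. Lpl, which splits triglycerides, had 146.2 FPKM in KO against 323.5 FPKM in WT (-1.14), and Apoe had 2562 FPKM in KO against 4254 FPKM in WT (-0.73). Lysosomal genes leaned high, with 20 of 23 above 0, but their median was only 0.12 and none passed 2-fold. The cathepsin gene Ctss had 1908 FPKM in KO against 1166 FPKM in WT (0.71). Of 13 prostaglandin and leukotriene enzyme genes and 12 heat shock genes none passed 2-fold either, with medians of -0.11 and -0.20.

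**Figure D3:**
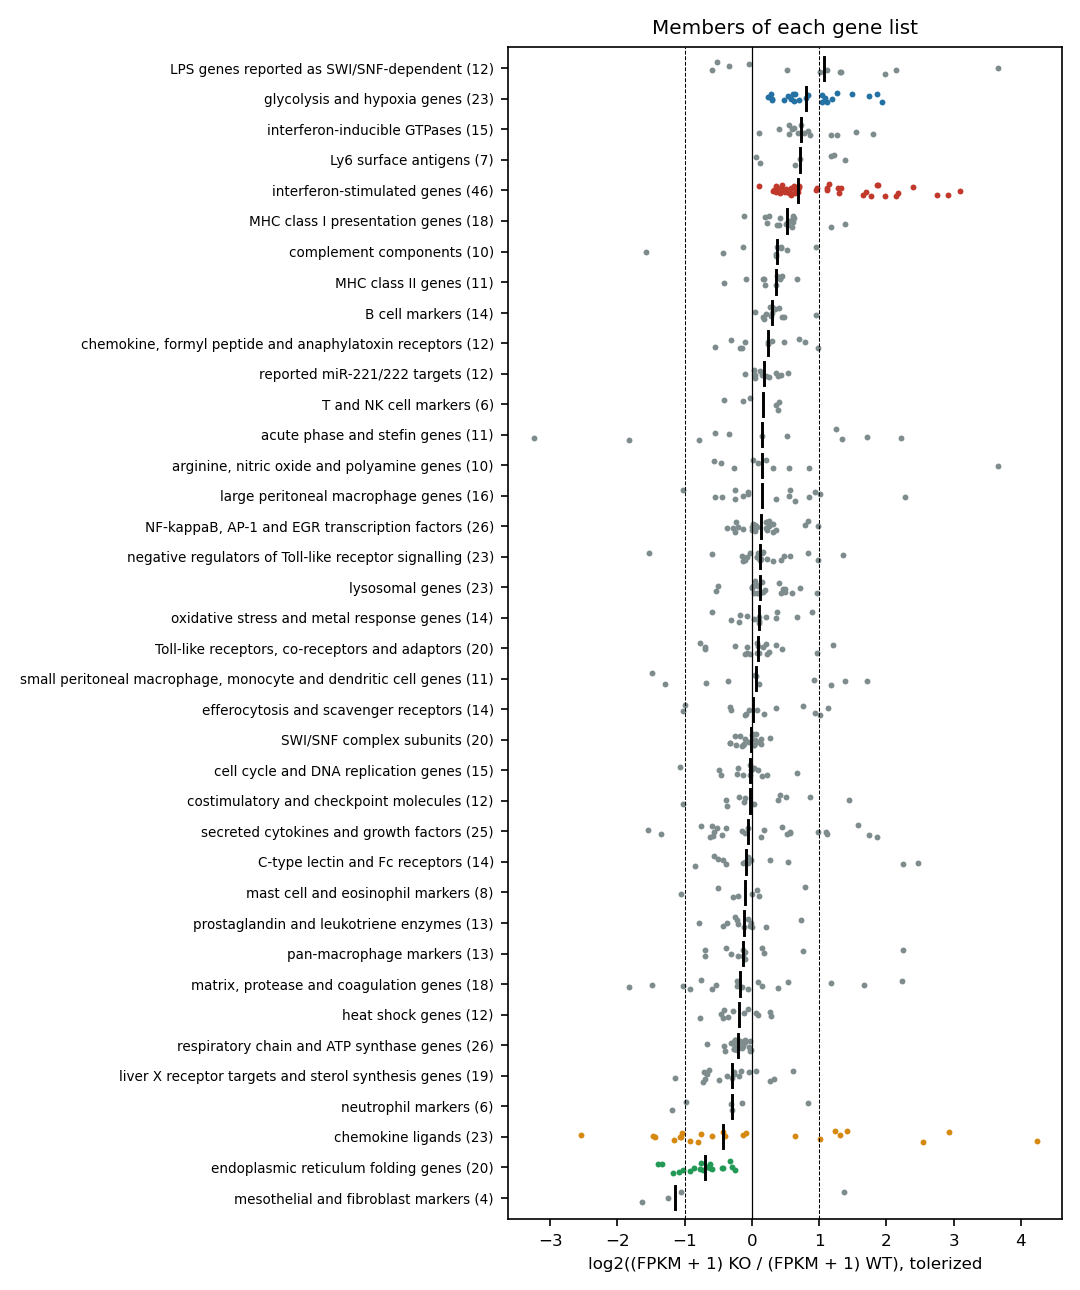
Log2 ratio of KO over WT tolerized cells on the horizontal axis for every measured member of 38 gene lists, 1 point per gene, with the number measured in brackets and the list median as a black bar. Dashed lines mark 2-fold. The interferon-stimulated (red) and glycolysis and hypoxia (blue) lists lie wholly above 0, the endoplasmic reticulum folding list (green) wholly below, and chemokines (orange) spread from -2.54 to 4.24.

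Smarca4 and the other SWI/SNF genes stood at like levels in both tolerized libraries. Smarca4 (chromosome 9, 21420613 to 21508674) had 20.5 FPKM in KO (19.8 to 21.3) and 20.1 FPKM in WT (19.4 to 20.8), a ratio of 0.03 with bounds of -0.07 and 0.13. After LPS alone it had 18.4 FPKM in KO against 11.7 FPKM in WT (0.61), and in naive cells 18.2 FPKM in KO against 17.1 FPKM in WT (0.09). Of 20 subunit genes measured 10 lay above 0, none passed 2-fold, and the range ran from -0.33 (Ss18) to 0.27 (Arid1a). Of 12 LPS genes reported to need the complex, 7 were at least 2-fold higher and none lower in KO, with a median of 1.07. Of all genes 1.86% were higher and 0.892% lower by that much. The 7 were Nos2, Ifit3, Mx1, Ifit1, Cxcl10, Irf7 and Ccl5, of which Ifit3, Mx1, Ifit1 and Irf7 are also on the interferon-stimulated list. Il6 and Il12b, members of the same list, lay below 0 as given above. The lean was not confined to tolerized cells. In the naive pair 9 of the 12 were at least 2-fold higher in KO, with a median of 2.26, beside 4% of all genes measured in that pair. In the LPS pair 3 were, with a median of 0.46, beside 4.27% of all genes. The 12 were not filtered again on level in these pairs, and Nos2 lay below 2 FPKM in both naive libraries.

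Genes reported elsewhere as targets of miR-221/222 leaned slightly high. Of 12 measured, 11 were above 0, none passed 2-fold, and the median was 0.18. The intervals did not overlap in 4 of the 12, a smaller share than the 44.9% of all genes. Ddit4, an inhibitor of mTOR signalling, had 10.4 FPKM in KO against 6.86 FPKM in WT (0.53), and Cdkn1b, the cell cycle inhibitor p27, had 18.9 FPKM in KO against 13.7 FPKM in WT (0.43). Icam1 had 162.1 FPKM in KO against 123.6 FPKM in WT (0.39), and the cell death gene Bbc3 had 4.32 FPKM in KO against 3.17 FPKM in WT (0.35). Bmf, another cell death gene, was at 0.26. In the LPS and naive pairs the medians of the same list were -0.31 and -0.27, beside -0.11 and -0.02 for all 9757 genes. Sites that pair with the shared seed are shown for 4 of these genes, from the GENCODE M21 annotation of GRCm38. They lie at chr6:134924417-134924445 (plus strand), chr7:16317317-16317345 (plus), chr10:59950236-59950264 (minus) and chr2:118528937-118528965 (minus). The same search gave no such site for Icam1. Capitals mark the 7 bases that pair with the seed and the A after them.
Cdkn1b: tctaaaagcattggATGTAGCAttgcgca
Bbc3: actttttctgcaccATGTAGCAtactgga
Ddit4: ctggctggatgtgtATGTAGCAtgtacct
Bmf: ggagacccagcgagATGTAGCAtttcctt
No match of this kind was found in the longest annotated 3′ UTR of Smarca4, which says only that these letters are not in that window.

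Across all genes with an annotated 3′ UTR, 9436 of the 9757, those with an 8-base site (330 genes) had a median ratio of 0.03 with 55.5% above 0. Genes with a 7-base match to bases 2 to 8 (700) had a median of -0.01, those with a match to bases 2 to 7 followed by an A (681) had 0.00, and those with none (7725) had -0.02 with 46.2% above 0. The difference between the first and the last class was small beside the quartiles of -0.11 and 0.19 of the first. UTRs with a site were longer, with a median of 2826 bases for the first class and 926 for the last. Split by UTR length into 3 equal classes, genes with either full seed match were at -0.02, 0.02 and 0.00 from short to long, and genes with none at -0.06, -0.01 and -0.00. In the LPS pair the class medians were -0.03, -0.08, -0.07 and -0.12, where all 9757 genes had a median of -0.11. In the naive pair they were -0.13, -0.09, -0.09 and -0.00, where all genes had -0.02 and those with an 8-base site had the lowest.

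**Figure D4:**
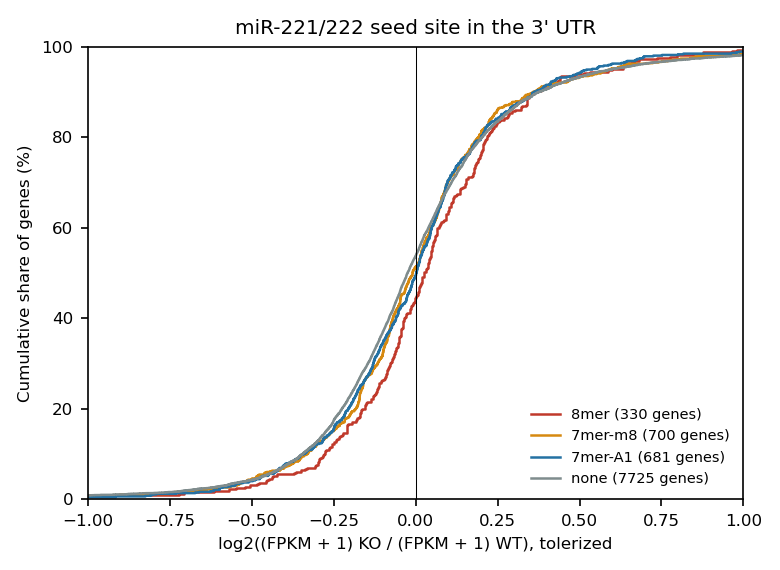
Cumulative share of genes in percent (vertical axis) against the log2 ratio of KO over WT tolerized cells (horizontal axis) by the strongest miR-221/222 seed match in the 3′ UTR. The curve of 330 genes with an 8-base site (red) runs to the right of the curve of 7725 genes with none (grey) over most of its course, with medians of 0.03 and -0.02, and the other curves lie close to the grey one.

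The same genotypes were set side by side in the other conditions. These pairs share no library. In the LPS pair 371 of 8694 genes were at least 2-fold higher in KO and 273 lower, and in the naive pair 411 of 10283 were higher and 328 lower, so the tolerized pair held the fewest. Of the 181 genes higher in tolerized KO cells 62 were also higher after LPS alone (34.3% of the tolerized and 16.7% of the LPS genes) and 45 in naive cells (24.9% and 10.9%). Of the 87 lower genes 22 were also lower after LPS alone (25.3% and 8.06%) and 12 in naive cells (13.8% and 3.66%), while 19 were at least 2-fold higher in naive KO cells.

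In all 3 pairs 22 genes were at least 2-fold higher in KO, among them Ifit2, Ifit3, Rsad2, Cmpk2, Slfn4, Siglec1, Il18bp, Ly6c2, Ly6i, Orm1 and Orm2, and 8 were lower, among them Ctla2a, Fn1, F5, Pros1, Cxcl14 and Igfbp4. Rsad2 stood at 10.6 FPKM in KO against 1.23 FPKM in WT naive cells, 4650.2 FPKM in KO against 1273 FPKM in WT after LPS, and 331.5 FPKM in KO against 43.1 FPKM in WT when tolerized. Ctla2a stood at 5.95 FPKM in KO against 39.7 FPKM in WT naive cells, 6.18 FPKM in KO against 50.2 FPKM in WT after LPS, and 16.7 FPKM in KO against 75.1 FPKM in WT when tolerized. Both thus kept their direction while their level moved with the treatment.

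The lists differed in how they carried over. Interferon-stimulated genes had medians of 0.69, 0.48 and 0.68 in the naive, LPS and tolerized pairs, and 36 of 46 were above 0 in all of them. Glycolysis and hypoxia genes had 0.24, 0.28 and 0.80, and 14 of 23 were above 0 in all. Bnip3 stood at 13.9 FPKM in KO against 12.4 FPKM in WT naive cells, at 3.31 FPKM in KO against 1.99 FPKM in WT after LPS, and at 59.5 FPKM in KO against 15.7 FPKM in WT when tolerized. Folding genes had 0.23, 0.10 and -0.69. Chemokines had 1.32, -0.39 and -0.43, and respiratory genes 0.39, -0.12 and -0.21. All 9757 genes had -0.02, -0.11 and -0.02, so the respiratory median of the LPS pair lay near that of all genes. Whether any of these differences between conditions exceeds the spread between animals was not tested, since each rests on single libraries.

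**Figure D5:**
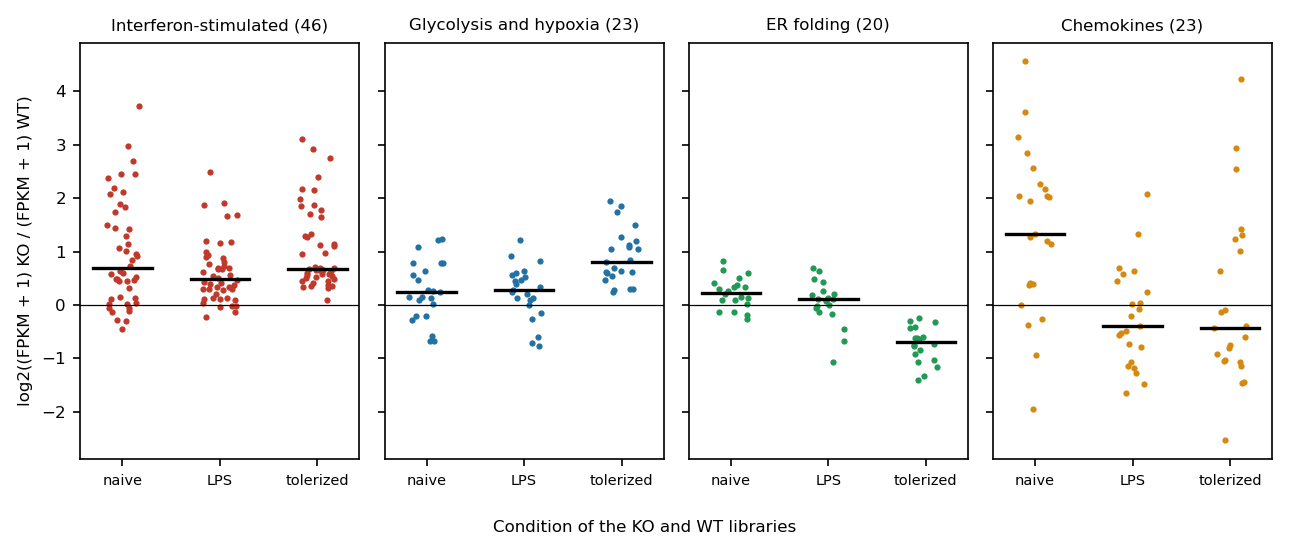
Log2 ratio of KO over WT (vertical axis) of the measured members of 4 gene lists in the naive, LPS and tolerized pairs, 1 point per gene, with the median as a black bar. The interferon-stimulated medians are 0.69, 0.48 and 0.68, the glycolysis and hypoxia medians 0.24, 0.28 and 0.80, the endoplasmic reticulum folding medians 0.23, 0.10 and -0.69, and the chemokine medians 1.32, -0.39 and -0.43.

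The genotype difference averaged over the 3 conditions could be tested, with limma on all 6 libraries and condition as a term, over 10164 genes. It asks whether the mean difference of KO from WT over the 3 conditions departs from 0, and is not a test of tolerized cells. Its standard errors (SE) reflect how the difference varied among the conditions, not the spread between animals. With Benjamini-Hochberg adjustment no gene was higher in KO at an adjusted p below 0.05 and 1 was lower (0.00984% called), the small RNA row Mir7-1. At an unadjusted p below 0.05 there were 439 higher and 271 lower. Ctla2a came next, at -2.50 ± 0.20 (SE, 3 libraries per genotype, lower in 3 of 3 conditions; limma adjusted p = 0.0714). Rsad2 was at 2.39 ± 0.25 (higher in 3 of 3; limma adjusted p = 0.126), Ifit2 at 2.35 ± 0.32 (3 of 3; limma adjusted p = 0.177) and Nos2 at 2.43 ± 0.60 (3 of 3; limma adjusted p = 0.445). In simulated data of the same design limma recovered 25% of genes set apart by 2-fold and 76% of those set apart by 4-fold, so a miss here does not show equal levels. Without the KO tolerized library 133 genes were higher and 71 lower, and without the WT tolerized library 136 and 74, each from the naive and LPS pairs with 1 residual degree of freedom.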

How the data were processed

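Poly-A mRNA of peritoneal macrophages was sequenced from TruSeq libraries, per the labels' protocols. The authors deposited 1 table of FPKM values per library with lower and upper bounds, per the file headers. TopHat, Cufflinks, bcl2fastq 1.8.4 and the mouse build mm9 are named in the submitters' processing notes. The sources used here give neither the versions of TopHat and Cufflinks, nor the annotation, nor the level of the bounds.

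Titles placed the samples in 6 groups, 1 library each. From the tolerized pair 314 rows not marked OK and 712 rows of 248 symbols at several loci were left out, then rows below 2 FPKM in both libraries. Ratios are log2((FPKM + 1)/(FPKM + 1)), which understates low genes. For want of replicates, genes are called by size, at least 2-fold. Depth was estimated from interval widths taken as 2 standard errors of a count: below 200 fragments 69.5% (KO) and 68.8% (WT) came out whole within 0.01. The widths set the precision and cover counting error only.

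The genotype test was run two-sided in limma 3.58.1 under R 4.3.3 (lmFit, then eBayes with a trend) on log2(FPKM + 1) with condition as a covariate, on genes that were OK in all libraries and reached 2 FPKM in 2 or more. It had 2 residual and 4.02 prior degrees of freedom. With 1 library per genotype and condition, its residual is how far the genotype difference varied among the 3 conditions. Treatment effects on that difference and noise between libraries cannot be told apart in it. Its p-values do not measure the spread between animals, and separate animals are not stated. Cxcl3, at 4.56, -1.28 and -1.47 in the naive, LPS and tolerized pairs, had an SE of 1.17. The genotype test was tried on simulated data with 200 of 10164 genes changed, where 6 other genes were called.

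Named genes are the 15 largest ratios of each direction with at least 10 FPKM in either library and intervals that do not overlap, small RNA rows left out, the 4 largest of each list described, and Mir221, Mir222, Smarca4, Tnf, Il6, Il12b, Nos2, Stat2, Irf9, Arg1 and Ly6c2. Some genes this rule names are not reported here, though counts and medians include them. Other list members are examples chosen after their values were seen. The comparison, the 38 lists and the rules were chosen with earlier results of these data known, and the folding list and the hypoxia motif were added after the values of this comparison were seen. Gene coordinates are mm9 and sequences GRCm38, matched by symbol only. Alternatives were other pseudocounts, filters, fold limits, scaling and left-out libraries.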

Additional observations from a re-analysis of the deposited data

Results flagged for a closer look

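Several named genes were at least 2-fold apart in one direction in tolerized cells and at least 2-fold in the other in another condition. Each value is 1 library against 1, and the difference between conditions was not tested. Among genes lower in tolerized KO cells, Cxcl3 (-1.47 there) was at 4.56 in the naive pair, Csf2 (-1.55) at 1.66 and Ccl17 (-2.54) at 1.2. Ifi27l1 (-1.57) was at 1.05 in that pair and the proliferation marker Mki67 (-1.07) at 2.27. The 15 measured cell cycle genes, Mki67 among them, had medians of -0.03 in the tolerized and 0.08 in the naive pair. By at least 2-fold, 1 of the 15 was lower in the tolerized pair and 1 higher in the naive pair. The stefin genes Gm5483 (-3.25) and 2010005H15Rik (-1.83) were at 1.6 and 3.18 in the naive pair, and 2010005H15Rik was at 1.75 in the LPS pair. Some of these rest on values near the 2 FPKM limit, reached in KO alone. In naive cells Gm5483 had 2.02 FPKM in KO against 0 in WT, and Csf2 had 2.72 FPKM in KO against 0.173 in WT. After LPS 2010005H15Rik had 3.49 FPKM in KO against 0.331 in WT.

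Among genes higher in tolerized KO cells, the Fc receptor gene Fcgr4 (2.47) was at -1.22 in the naive pair. Selp (P-selectin, 2.27) was at -1.32 in the LPS and -1.77 in the naive pair, and the macrophage lipid-binding protein gene Cd5l (1.01) at -1.48 and -2.78. Ifitm6 (1.71) was at -1.10 in the LPS pair. Levels of Selp were low in those pairs, at 0.412 FPKM in KO against 2.52 in WT after LPS and 0.337 against 3.56 in naive cells. In tolerized cells Selp had 11.0 FPKM in KO against 1.47 in WT, so it entered through the KO library alone. Selp and Cd5l are among genes typical of large peritoneal macrophages, a list with 2 of 16 members at least 2-fold higher and 1 lower in tolerized KO cells and 8 above and 8 below 0. Its 8 defining markers summed to 390.4 FPKM in KO and 263.7 FPKM in WT, mostly from Prg4 (305.9 FPKM in KO and 206.5 FPKM in WT), while Gata6, F5, Alox15 and Vsig4 were lower in KO. The part of cell composition in these values was not tested.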

How the results depend on the processing

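No paired analysis was possible because each group has 1 library, apart from the limma fit over the 3 conditions, which sets KO against WT within each condition. Counts of genes at least 2-fold higher and lower in tolerized KO cells were 112 and 44 with a pseudocount of 5 and 521 and 294 at 1.5-fold. The count of lower genes was 52 with at least 10 FPKM in either library and 55 with at least 2 FPKM in both, the last added after seeing the data. With a pseudocount of 5 the medians were 0.60 for interferon-inducible GTPases, 0.69 for glycolysis and hypoxia genes and -0.42 for the 4 mesothelial and fibroblast markers, which stood at -1.99 with a pseudocount of 0.1. With at least 10 FPKM in either library the medians were 0.55 for large and 0.48 for small peritoneal macrophage genes, 0.38 for costimulatory, -0.56 for neutrophil, -0.45 for acute phase, 0.95 for Ly6 and 1.37 for mesothelial and fibroblast genes (1 gene, opposite in sign). Without a filter they were 0.13 for cytokines, -0.041 for neutrophil, -0.024 for mesothelial and fibroblast, -0.093 for matrix, 0.69 for glycolysis and hypoxia and -0.03 for large peritoneal macrophage genes, the last opposite in sign. With at least 2 FPKM in both libraries they were -0.51 for chemokines, -0.35 for acute phase, -0.059 for large peritoneal macrophage and 1.37 for mesothelial and fibroblast genes, the last 2 opposite in sign. With a pseudocount of 0.1, 14 and 24 genes higher in the tolerized pair were at least 2-fold lower in the LPS and the naive pair. Leaving out each library in turn, limma called 1 to 136 genes higher and 2 to 74 lower, and the cause was not tested beyond the libraries named in the report. Rescaling put 3 of 26 respiratory genes above 0 and left 4 of 20 folding genes at least 2-fold lower. The other 289 counts and list medians under an alternative moved less, that is by under 1.5 times or within the deposited intervals. Of values of single named genes under an alternative 996 stayed within those intervals and 87 moved beyond them, with no change of sign in a gene at least 2-fold apart. Depth limits genes of 2 to 5 FPKM, whose intervals span about 13.7% to either side.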
